A study of Mus musculus with 11 samples.

Results

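The 8 genes described here encode interferon-γ and the apparatus that receives interferon signals: the ligand Ifng, its receptor chains Ifngr1 and Ifngr2, the type I interferon receptor chains Ifnar1 and Ifnar2, and the Janus kinases Jak1, Jak2 and Tyk2 that sit on these receptors. They were chosen by gene symbol from the 25827 genes counted in every library, and all 8 were found. Their unique molecular identifiers (UMIs, each standing for a captured RNA molecule) were summed per library and per cell class, and are given as UMIs per 1000000 UMIs of that class in that library (CPM).

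Interferon-γ is made mainly by activated T and natural killer (NK) cells. It is bound by IFNGR1, which carries JAK1, and signals only when IFNGR2, which carries JAK2, joins the complex. Type I interferons are bound by IFNAR1, which carries TYK2, together with IFNAR2, which carries JAK1. Both receptors switch on a large set of antigen presentation, chemokine and antiviral genes, and in the central nervous system (CNS) microglia, astrocytes and oligodendrocytes are known to respond.

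The measurements were single-nucleus RNA-seq counts from Hoechst+ sorted nuclei of pooled cerebellum and brainstem (1 hemisphere) and C1-C2 cervical spinal cord from male mice aged 8 to 12 weeks. Every animal carried the floxed interleukin-12 receptor allele Il12rb2fl/fl, and the study asked what loss of this receptor from neuroectodermal cells does in experimental autoimmune encephalomyelitis (EAE). Il12rb2fl/fl controls (fl) were compared with NestinCre/+Il12rb2fl/fl littermates (NestinCre), in which the Nestin promoter drives Cre in neural precursor cells, so that neurons and macroglia are targeted and microglia are not. EAE was induced with 200 µg of a myelin oligodendrocyte glycoprotein peptide in complete Freund's adjuvant plus 50 to 100 ng of pertussis toxin, and tissue was taken on day 10. The groups were fl EAE (4 libraries), NestinCre EAE (4), fl non-immunized (naive, 2) and NestinCre naive (1), sequenced in 3 runs: EAE replicates 1 to 3 of both genotypes in run 1, EAE replicate 4 of both and fl naive 2 in run 2, and the other naive libraries in run 3.

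The 11 libraries held 40761007 to 86063464 UMIs each, and 159550 nuclei were kept, 11646 to 18579 per library, with a median of 2372 UMIs. Named cell classes took 149225 nuclei in 23 classes, and 6.47% stayed unnamed. The 8 genes had been left out of the clustering. Of the fixed markers of a class, those more than 2-fold above all other nuclei numbered 13 of 13 in T or NK cells and 8 of 8 in microglia, but only 3 of 8 in inhibitory neurons, 4 of 7 in unipolar brush cells and 6 of 9 in excitatory neurons. Pairs of libraries shared 47 to 140 barcodes, 0.358% to 0.692% of the smaller library. The targeted gene Il12rb2 stood at 10.9 to 16.9 CPM in fl EAE and 8.02 to 16.9 CPM in NestinCre EAE, so the genotypes overlapped. The sources used here do not give the position of the loxP-flanked part, so these counts check no label. Immune nuclei were unevenly spread over the EAE libraries: infiltrating phagocytes numbered 14, 4, 28 and 24 in fl EAE and 179, 114, 138 and 41 in NestinCre EAE, T or NK cells 3, 5, 8 and 1 against 29, 22, 39 and 24, and neutrophils 6, 2, 3 and 8 against 160, 68, 64 and 5.

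On mouse assembly GRCm39, 3 of the 4 receptor chains lie in a single cluster on chromosome 16. In its order, Ifnar2 (91169618 to 91202723), the interleukin-10 receptor gene Il10rb, Ifnar1 (91281942 to 91305789) and Ifngr2 (91343906 to 91362512) cover 192895 bases, all members on the plus strand. Ifngr1 (19467697 to 19485977) and Ifng (118276951 to 118281797) are both on the plus strand of chromosome 10. The kinases are scattered, with Jak1 on chromosome 4 (101008838 to 101122487, minus strand), Jak2 on chromosome 19 (29228677 to 29290505, plus strand) and Tyk2 on chromosome 9 (21015363 to 21042689, minus strand). Introns were counted, and the genes span from 4847 bases (Ifng) to 113650 bases (Jak1), so levels are compared below between classes for the same gene and not between genes. Overlapping annotated genes were almost silent at Ifng (Gm49751, 2 UMIs over all libraries) and at Ifnar2 (Gm21970, 24 UMIs), while Raver2 overlaps Jak1 on the opposite strand.

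Because the response genes of this pathway differ between the genotypes (below), the members' promoters were searched for the spaced palindrome TTCNNNGAA, a form known from the control regions of interferon-induced genes, which reads the same on both strands. Of the 8 promoters (RefSeq, GRCm38.p6, 250 bases before to 50 after the annotated start), 3 held a match, against 8.30% of 32851 promoters of the same length. These 3 are shown with the match in capitals: Ifng at chr10:118440796-118441095, Ifnar1 at chr16:91484965-91485264 and Ifnar2 at chr16:91372533-91372832, all on the plus strand.
Ifng: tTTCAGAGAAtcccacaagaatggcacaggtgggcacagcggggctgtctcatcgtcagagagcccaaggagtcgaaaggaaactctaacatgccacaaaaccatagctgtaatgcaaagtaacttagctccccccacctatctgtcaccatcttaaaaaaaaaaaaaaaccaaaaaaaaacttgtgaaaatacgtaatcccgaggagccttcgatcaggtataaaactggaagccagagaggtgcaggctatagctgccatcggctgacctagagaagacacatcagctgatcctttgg
Ifnar1: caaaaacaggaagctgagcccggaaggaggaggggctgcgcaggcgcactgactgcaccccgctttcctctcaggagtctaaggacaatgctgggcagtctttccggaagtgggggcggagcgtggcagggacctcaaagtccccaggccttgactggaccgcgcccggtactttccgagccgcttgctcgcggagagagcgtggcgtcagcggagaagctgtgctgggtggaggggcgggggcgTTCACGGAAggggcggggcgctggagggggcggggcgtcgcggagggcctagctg
Ifnar2: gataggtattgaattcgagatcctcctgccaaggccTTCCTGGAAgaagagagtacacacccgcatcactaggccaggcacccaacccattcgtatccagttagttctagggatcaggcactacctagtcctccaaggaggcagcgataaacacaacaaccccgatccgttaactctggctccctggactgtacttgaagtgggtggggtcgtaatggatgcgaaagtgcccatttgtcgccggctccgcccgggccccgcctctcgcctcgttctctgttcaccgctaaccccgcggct
The match began 249 bases before the start in Ifng, 5 before it in Ifnar1 and 214 before it in Ifnar2. The other motif searched, on either strand, was the core of the interferon-stimulated response element, the site bound by interferon regulatory factors, and it was found in 0 of the 8 promoters and in 3.44% of all promoters. Matches of the 2 motifs may share bases. A match describes letters in this window, not a bound site, and its absence says nothing of a factor.

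The first question was which classes carried the receptors. Among the 16 classes with at least 10 nuclei in 6 or more libraries, all 4 chains were most abundant in the myeloid classes: microglia, the resident macrophages of the parenchyma, infiltrating phagocytes, and border-associated macrophages. Ifngr1, the ligand-binding chain for interferon-γ, stood in microglia at 63.8 CPM in the lowest of the 11 libraries, 114 in the median and 177 in the highest, against 8.33, 10.6 and 12.6 CPM in granule cells, the most numerous neurons of the sample. The ranges did not overlap. Ifngr2, the chain that brings in JAK2, showed the same separation, with 134 to 204 CPM in microglia (median 168) and 10.4 to 17.9 CPM in granule cells (median 15.0). Infiltrating phagocytes, measured in 8 libraries, had 156.5 ± 80.0 CPM of Ifngr1 (mean ± SD) and 156 ± 50.4 CPM of Ifngr2. Microglia had means of 122 ± 33.4 and 170.2 ± 23.1 CPM (n = 11). The phagocyte mean of Ifngr1 pools 229 ± 83.3 CPM in fl EAE (n = 3), 128 ± 17.4 CPM in NestinCre EAE (n = 4) and 1 naive library at 52.1 CPM on 2 UMIs.

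The type I receptor was likewise highest in myeloid classes. Ifnar2, which carries JAK1, was at 117 to 213 CPM in microglia (median 145) and at 9.0 to 20.8 CPM in granule cells. Ifnar1, which carries TYK2, was at 28.0 to 74.4 CPM in microglia (median 57.6), a smaller distance from the 18.6 to 24.7 CPM of granule cells. Border-associated macrophages had the highest mean Ifnar2 (174 ± 92 CPM, n = 10) and infiltrating phagocytes the highest mean Ifnar1 (113 ± 47.8 CPM, n = 8) among those 16 classes. With clusters at a lower resolution, where phagocytes were not named, endothelial cells led for Ifnar1 at 108 CPM. In fl EAE alone border-associated macrophages led for Ifnar1 (121 CPM, against 84.8 CPM in phagocytes) and both classes were level for Ifnar2 (173 ± 116 CPM in phagocytes and 172 ± 170.3 CPM in border-associated macrophages, n = 3 each), and without removal of doublets border-associated macrophages also led for Ifnar1 (101 CPM). Endothelial cells reached that number of nuclei in only 3 libraries, where Ifnar1 stood at 207 ± 56.9 CPM. Leptomeningeal cells or fibroblasts lay between myeloid and neural classes, with 82.3 ± 57.4 CPM of Ifnar2 and 49.7 CPM of Ifnar1.

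Mean levels of the receptor chains, in CPM, were lower in neurons and macroglia than in the myeloid classes. No level of free RNA was measured, so values of a few CPM there are not shown to be expression. Mature oligodendrocytes, the myelinating cells, held 8.29 ± 1.61 CPM of Ifngr1, 6.31 ± 1.41 of Ifngr2, 20.4 ± 3.45 of Ifnar1 and 18.8 ± 3.26 of Ifnar2 (n = 11). Ifnar2 was higher in the earlier stages of this lineage, at 34.8 ± 10.3 CPM in oligodendrocyte progenitor cells (n = 11) and 75.5 ± 31.9 CPM in newly formed oligodendrocytes (n = 6). Purkinje cells, the output neurons of the cerebellar cortex, had the lowest mean Ifngr1 (3.08 ± 2.97 CPM, 25 UMIs over 11 libraries) together with 23.7 ± 7.05 CPM of Ifngr2. Astrocytes held 11.3 ± 5.88 CPM of Ifngr1 and 9.64 ± 7.64 CPM of Ifngr2, and at least 1 library had no UMI of either.

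The kinases were more widely spread. Jak1, used by both receptors, was highest of the 16 classes in border-associated macrophages (337 ± 98.4 CPM, n = 10) and microglia (271 ± 40.5 CPM, n = 11). It was next highest outside the immune classes, after leptomeningeal cells, in astrocytes (171 ± 25.1 CPM) and in unipolar brush cells (169 ± 46.5 CPM), excitatory interneurons of the granular layer. Granule cells were nearly constant from library to library, at 72.2 to 79.5 CPM of Jak1. In astrocytes the 11 libraries ran from 144 to 223 CPM of Jak1, all above that range.

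Jak2, the partner of Ifngr2, followed another order. Infiltrating phagocytes led with 347 ± 157 CPM (n = 8), and mature oligodendrocytes came next with 182 ± 17.3 CPM (n = 11), above microglia at 106 ± 32.3 CPM. The phagocyte mean rests on EAE libraries, with 333 ± 83.4 CPM in fl EAE (n = 3) and 432 ± 118 CPM in NestinCre EAE (n = 4), since the single naive library with enough phagocytes was at 52.1 CPM on 2 UMIs, below the 169 ± 24.2 CPM of mature oligodendrocytes in fl naive (n = 2). Without removal of doublets it was 226 CPM. Mature oligodendrocytes exceeded microglia in 11 of 11 libraries, with a range of 152 to 206 CPM against 55.7 to 159.9 CPM. Newly formed oligodendrocytes (103 ± 17.0 CPM) and progenitor cells (89.1 ± 18.7 CPM) also lay above granule cells (53.9 ± 7.90 CPM), whereas Purkinje cells had 19.1 ± 4.89 CPM. Tyk2, the kinase of Ifnar1, had the narrowest range: 114 ± 35.8 CPM in phagocytes, 92.8 ± 27.1 in microglia, 36.4 ± 5.14 in mature oligodendrocytes, 29.5 ± 2.94 in granule cells and 21.1 ± 4.97 in Purkinje cells.

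**Figure D1:**
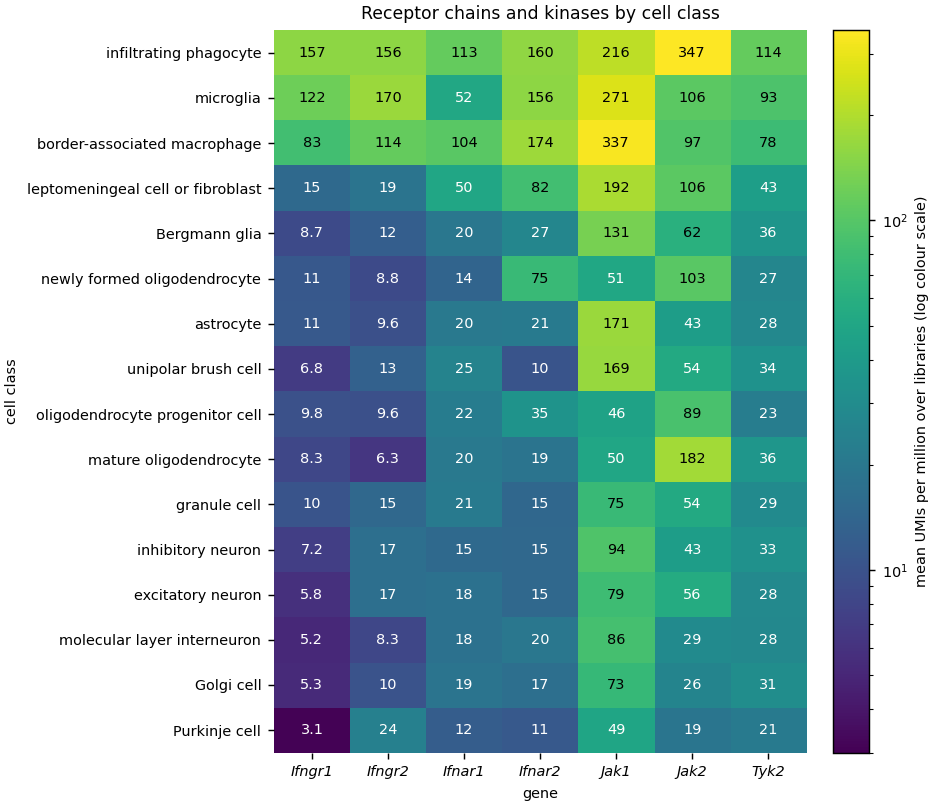
Grid of the mean level over libraries (printed in each cell, in CPM, on a log colour scale) of the 7 receptor and kinase genes (columns) in 16 cell classes (rows). Ifngr1, Ifngr2 and Ifnar2 are highest in microglia, phagocytes and border-associated macrophages, while Jak2 also stands high in mature oligodendrocytes at 182 CPM.

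Each class was then set against granule cells of the same library, a reference picked after the values had been seen because it is the class with the most nuclei. All 7 genes were higher in microglia in 11 of 11 libraries (two-sided exact sign-flip permutation test, p = 0.000977 for each gene, the smallest that 11 libraries can give), and the background was 25.4% of genes higher in every library for this class. Ratios of the means were 11.9 for Ifngr1, 11.5 for Ifngr2, 10.6 for Ifnar2, 3.61 for Jak1, 3.15 for Tyk2, 2.48 for Ifnar1 and 1.97 for Jak2. In phagocytes all 7 were higher in 8 of 8 libraries (background 9.8%), and in border-associated macrophages 3 of 7, Ifngr2, Ifnar2 and Jak1, in 10 of 10 (background 6.56%). Microglia and phagocytes thus stood above the most numerous neuron for every receptor chain and kinase among the members.

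Mature oligodendrocytes differed from granule cells in both directions. Jak2 was 3.38 times as high, Ifnar2 1.28 times and Tyk2 1.24 times, each higher in 11 of 11 libraries (background 28.9%). Ifngr2 was at 0.425 times and Jak1 at 0.666 times the granule cell mean, each lower in 11 of 11 (background 35.9%). Progenitor cells shared the higher Ifnar2 (2.37 times) and Jak2 (1.65 times, background 14.1%) and the lower Jak1 (0.621 times, background 19.6%). In astrocytes and in unipolar brush cells, Jak1 was the member higher in every library, at 2.29 times (background 17.7%) and 2.26 times (background 7.33%). Purkinje cells were lower in every library for Ifngr1 (0.299 times), Ifnar1 (0.579 times) and Jak2 (0.354 times), where the background was 44.6%, and higher for Ifngr2 in 10 of 11 libraries (1.59 times, exact p = 0.00293). The remaining classes added few. Jak1 was higher in every library in Bergmann glia (131 CPM on average, background 11.2%) and inhibitory neurons (94.1 CPM, background 32.5%), Jak2 in leptomeningeal cells or fibroblasts (10 of 10 libraries, background 6.17%), and Ifnar2 and Jak2 in newly formed oligodendrocytes (6 of 6, background 11.3%). In the other direction, Ifngr1, Ifngr2 and Jak2 were lower in every library in molecular layer interneurons (background 31.3%), Ifngr1, Ifnar1 and Jak2 in inhibitory neurons (background 34.9%), and Jak2 in Golgi cells (background 21.7%). Ifngr1 was also lower in every library in excitatory neurons (background 34.6%). No member was lower in every library in Bergmann glia (background 17.8%) or in leptomeningeal cells or fibroblasts (background 7.44%).

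Over all 105 pairs of a class and a member, 29 were higher in every library (background 16.6%) and 14 lower (background 22.6%).

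Within the order of classes, the test left neighbours unseparated, in part through its own floor. The smallest p it can give is 0.000977 with 11 libraries and larger with fewer, so that after adjustment over 105 pairs 1 or 2 pairs at this floor alone cannot pass. Of 105 neighbouring pairs in the 7 orders, 0 passed the exact sign-flip test after Benjamini-Hochberg adjustment and 19 had an unadjusted p under 0.05, 7 of them for Jak1 and 5 for Jak2. The pairs were set by ranking the same values that were then tested. Without a share over all genes beside them, these counts are a description only. Jak2 in mature oligodendrocytes against microglia, 75.7 CPM higher on average, had an exact p of 0.000977, the floor, and an adjusted p of 0.0513, and was higher in 11 of 11 libraries. Phagocytes and microglia could not be ordered for Ifngr1, where phagocytes were higher in 7 of 8 libraries (exact p = 0.141, adjusted p = 0.483).

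**Figure D2:**
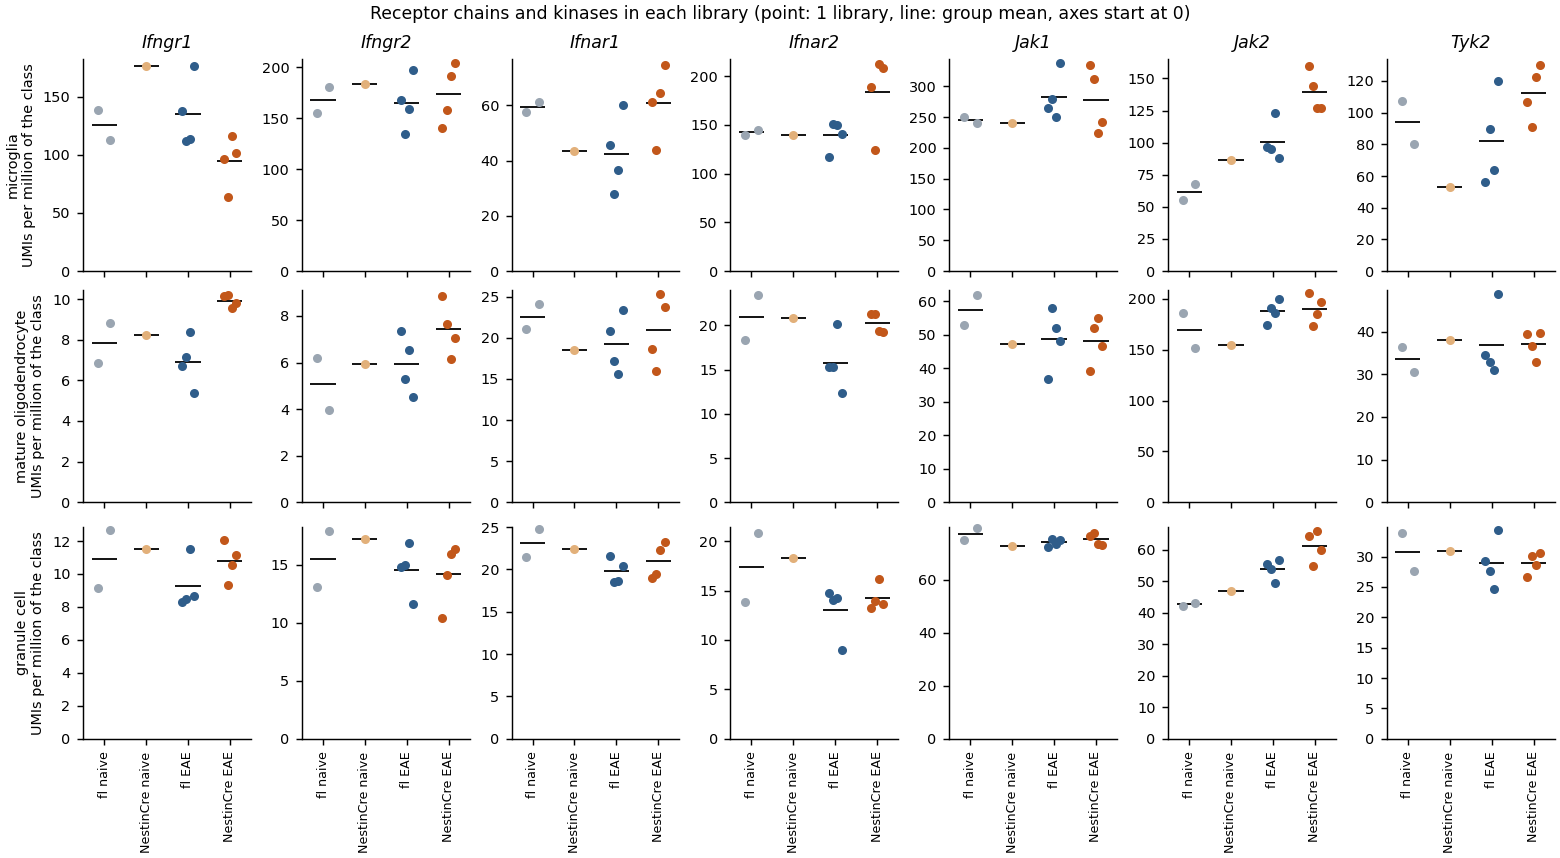
Level of each member (columns) in microglia, mature oligodendrocytes and granule cells (rows), in CPM of the class on axes that start at 0 and differ between panels, with 1 point per library, groups along the horizontal axis and a line at the group mean. Microglial Jak2 in NestinCre EAE (127 to 159.9 CPM) lies above fl EAE (88.2 to 123 CPM), while Jak1 in granule cells stays between 72.2 and 79.5 CPM.

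Since depth differs between classes, nuclei were also thinned to 1000 UMIs and the share with at least 1 UMI of each gene was counted. Of 1989 microglial nuclei, 15.5% had a UMI of Ifngr2, 15.5% of Ifnar2, 11.0% of Ifngr1, 21.5% of Jak1, 9.30% of Jak2, 8.80% of Tyk2 and 4.63% of Ifnar1. Of 99008 granule cell nuclei, the shares were 1.55%, 1.41%, 1.05%, 7.08%, 5.07%, 2.90% and 2.05% in the same order of genes. The nuclei that entered had a median of 1898 UMIs in microglia and 2249 in granule cells before thinning, and 193 and 8123 nuclei were too shallow to enter. Jak2 was seen in 16.1% of thinned mature oligodendrocytes and Jak1 in 14.4% of thinned astrocytes.

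Both chains of a receptor were rarely caught in the same nucleus at that depth. Ifngr1 and Ifngr2 were found together in 29 of 1989 microglia (1.46%), 11 of 475 phagocytes (2.32%), 27 of 99008 granule cells (0.0273%) and 1 of 19695 mature oligodendrocytes. Ifnar1 and Ifnar2 were found together in 12 microglia (0.603%), 8 phagocytes (1.68%), 37 granule cells (0.0374%) and 12 mature oligodendrocytes (0.0609%). A nucleus without a UMI of a chain at this depth cannot be called negative for it.

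The balance of the 2 chains was then compared across classes. This measure was chosen after the values were seen and is a description; it compares the same pair of genes across classes, since the level of 1 chain against the other within a class also depends on gene length. Of the UMIs of Ifngr1 and Ifngr2 together, Ifngr2 made up 59.6% in microglia (95% exact Clopper-Pearson interval 56.8 to 62.3), 58.8% in granule cells (57.6 to 60.1), 43.2% in mature oligodendrocytes (39.5 to 46.9) and 86.9% in Purkinje cells (81.3 to 91.3). Over single libraries the share ran from 50.9% to 71.2% in microglia, 46.2% to 64% in granule cells and 30.9% to 52.3% in mature oligodendrocytes, so these classes overlapped, and from 74.2% to 100% in the 8 libraries with at least 10 such UMIs in Purkinje cells. T or NK cells stood at the other end, with 3 Ifngr2 UMIs of 81 (3.70%, interval 0.770 to 10.4). In the 4 NestinCre EAE libraries these cells held 21, 10, 15 and 16 UMIs of Ifngr1 and 0, 0, 2 and 0 of Ifngr2. Ifngr1 there stood at 283 ± 35.4 CPM (n = 4), higher than the mean of any class measured in 6 or more libraries.

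For the type I receptor, Ifnar2 made up 74.6% of the UMIs of its 2 chains in microglia (interval 71.8 to 77.3), 83.1% in newly formed oligodendrocytes (72.9 to 90.7), 61.3% in progenitor cells, 48.0% in mature oligodendrocytes, 40.7% in granule cells (39.7 to 41.7) and 28.8% in unipolar brush cells (18.3 to 41.3). Over the 11 libraries the share ran from 70.2% to 84.4% in microglia, 44.4% to 82.4% in progenitor cells, 34.6% to 57.3% in mature oligodendrocytes and 30.6% to 45.7% in granule cells, so that microglia lay apart from mature oligodendrocytes and granule cells while the latter overlapped. In newly formed oligodendrocytes it ran from 53.8% to 100% over the 4 libraries with at least 10 such UMIs, and so overlapped mature oligodendrocytes. The intervals cover counting error only.

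**Figure D3:**
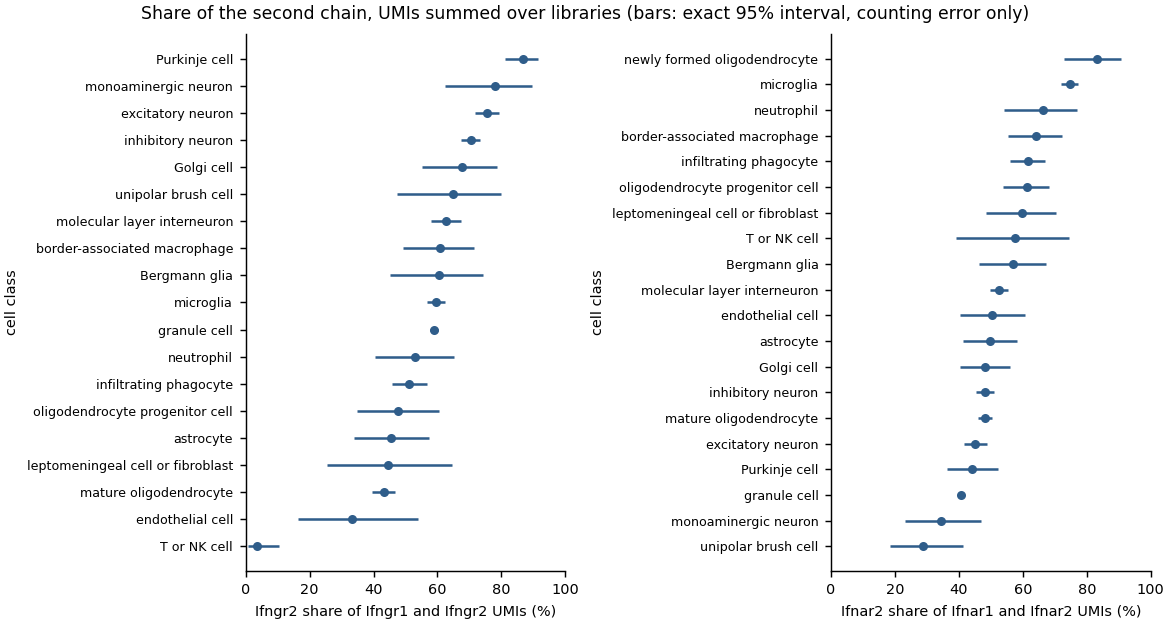
Share of Ifngr2 in the UMIs of Ifngr1 plus Ifngr2 (left) and of Ifnar2 in those of Ifnar1 plus Ifnar2 (right), in percent by cell class with UMIs summed over libraries, with lines for the exact 95% interval of counting error. T or NK cells lie at 3.70% Ifngr2 and Purkinje cells at 86.9%.

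The second question was whether the ligands were seen. Ifng gave 29 UMIs over all 11 libraries, against 6517 for Ifngr1, the next least counted member. The 4 fl EAE libraries held 0, 0, 1 and 0 Ifng UMIs, and the 4 NestinCre EAE libraries 1, 9, 12 and 5. The 2 fl naive libraries held 1 and 0 and the NestinCre naive library 0. Scaled to all UMIs of the library, NestinCre EAE stood at 0.0206, 0.192, 0.294 and 0.0581 CPM and fl EAE 3 at 0.0149 CPM, and a count of 0 allows up to 0.0349 to 0.0736 CPM depending on the library. In the fl EAE libraries without a UMI this limit was 0.0627, 0.0555 and 0.0373 CPM. NestinCre EAE replicates 2 and 3 were above all 3 limits, replicate 4 was below the first, and replicate 1 was below all 3.

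The mean was 0.141 ± 0.126 CPM of Ifng in NestinCre EAE and 0.00372 ± 0.00744 in fl EAE (SD, n = 4 each), a difference of 0.137 (two-sided exact permutation test, p = 0.0286, the smallest that 4 against 4 can give). The observed values did not overlap, but NestinCre EAE replicate 1 and fl EAE 3 had 1 UMI each, so their order follows from library size. Leaving out any fl EAE library gave an exact permutation p of 0.171. The groups still did not overlap, and the difference stayed at 0.136 to 0.141 CPM. With 3 against 4 libraries, splits of opposite sign can reach a difference as large, and the two-sided p counts them. Leaving out any NestinCre EAE library kept the exact permutation p at 0.0286, and without replicate 3 the difference fell to 0.0864 CPM. Within run 1 alone (3 against 3) the difference was 0.164 with an exact permutation p of 0.1, the smallest that design can give. In a whole library, fewer cells of a type and less RNA per cell cannot be told apart. Beside Ifng, the 13 T or NK cell markers summed to 12.2 to 21.3 CPM in fl EAE, 22.7 to 31.4 in NestinCre EAE and 17.7 to 22.8 in naive libraries, and their part in the result was not tested.

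**Figure D4:**
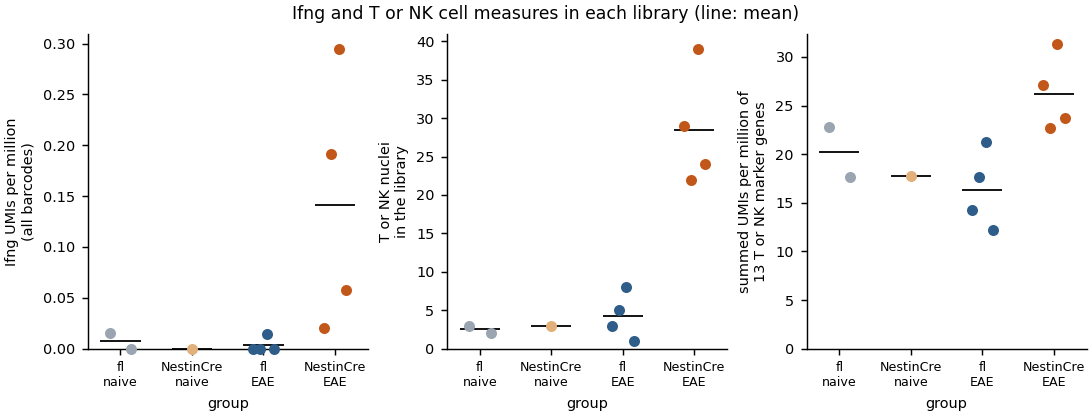
The left panel shows Ifng in CPM of the whole library, the middle panel the number of T or NK nuclei and the right panel the summed CPM of 13 T or NK markers, each with 1 point per library, groups along the horizontal axis and a line at the mean. The NestinCre EAE libraries hold 22 to 39 T or NK nuclei and up to 0.294 CPM of Ifng, and the fl EAE libraries 1 to 8 nuclei and at most 0.0149 CPM.

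Most Ifng UMIs lay outside nuclei named T or NK cell, a class of 139 nuclei. Of the 29, 22 fell in 21 kept nuclei, 20 of them from NestinCre EAE, with at most 2 in a nucleus. By library, kept nuclei of NestinCre EAE held 1, 6, 11 and 3 Ifng UMIs and those of fl EAE 0 in each. Granule cells, which are not known to make Ifng, made up in NestinCre EAE 14 of these nuclei (0.0378% of 37037, exact interval 0.0207 to 0.0634). In fl EAE they made up 0 of 41570 (exact upper bound 0.00887% for nuclei with a UMI). Median depths of the granule cells were 2006 UMIs in NestinCre EAE and 2226.5 in fl EAE. Whether these Ifng UMIs came from the granule cells was not tested. T or NK cells of NestinCre EAE had 2 nuclei with an Ifng UMI of 114 (1.75%, interval 0.213 to 6.19), at a median depth of 1548 UMIs. Both were among the 39 such nuclei of replicate 3, and the 29, 22 and 24 of the other replicates had 0. T or NK cells of fl EAE had 0 of 17. These shares pool the nuclei of 4 libraries, which are not replicates of a condition, and make no test of the genotypes. Of the 21 nuclei, 5 also held a UMI of a T or NK marker. Counted in T or NK nuclei only, the difference between the genotypes was 0.0123 CPM of Ifng, from a single library. Its two-sided exact permutation p of 1 is fixed by that, since every one of the 70 assignments then gives a difference of the same size, and it says nothing about the genotypes.

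Among 20 other interferon ligand genes in the files, 12 had no UMI in any library, and 7 had 1 to 10 UMIs, including Ifnb1, the early type I interferon, with 1. The exception was Ifnk, interferon-κ, with 271 UMIs (12 to 59 per library). Mature oligodendrocytes held 173 of them, at 3.48 ± 1.32 CPM (n = 11, 1.27 to 5.52), against 0.0332 ± 0.0285 CPM in granule cells. On few UMIs, its mean was also 4.41 ± 6.16 CPM in unipolar brush cells (10 UMIs), 2.79 ± 4.32 in newly formed oligodendrocytes (2), 2.52 ± 4.91 in Bergmann glia (8), 2.47 ± 5.08 in phagocytes (2) and 1.91 ± 2.33 in astrocytes (6), so these classes could not be set apart from mature oligodendrocytes. Ifnlr1, the private chain of the type III interferon receptor, gave 993 UMIs and was at 6.05 ± 2.08 CPM in inhibitory neurons, against at most 1.55 CPM in the other classes.

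The third question was whether the members differed between genotypes in EAE. In 12 classes, 60 pairs of a class and a member could be tested with the quasi-likelihood test of edgeR with sequencing run in the model, and 0 were called at an adjusted p under 0.05 (background 1.08% of gene and class tests). At an unadjusted p under 0.05 there were 8 of 60 (background 7.72%). DESeq2 called 0 of the 60. On simulated counts, the edgeR fit called 19.7% of 1.5-fold changes in microglia and 54.55% in granule cells. A member that was not called is therefore not shown to be unchanged. The fitted log2 fold changes, NestinCre over fl, ran from −0.46 to 1.00 with a median of 0.05, and 36 of 60 were above 0. In 3 of 60 the groups did not overlap (background 4.3%). Ifng passed the filter on low counts in none of the 12 classes, while Jak1 and Jak2 passed in all 12, Tyk2 in 9, Ifngr2, Ifnar1 and Ifnar2 in 7 and Ifngr1 in 6.

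Microglia had the most members with an unadjusted p under 0.05, 4 of 7 (background 15.9%; 5.49% of microglial genes were called). Jak2 was at 96.7, 95.1, 123 and 88.2 CPM in fl EAE and at 159.9, 144, 127 and 127 CPM in NestinCre EAE, without overlap. This was a log2 fold change of 0.47 with an SE of 0.20 (adjusted p = 0.215). Ifngr1 went the other way, with 137, 112, 114 and 176 CPM in fl EAE and 96.7, 63.8, 116 and 101 CPM in NestinCre EAE, where the groups overlapped (log2 fold change −0.46, SE 0.22, adjusted p = 0.302). Ifnar1 had the largest fitted change, from 42.5 ± 13.7 to 61.0 ± 12.8 CPM (log2 fold change 0.56, 95% interval −0.0015 to 1.12, adjusted p = 0.317), and is not among the 4. Tyk2 had a log2 fold change of 0.51 (adjusted p = 0.257) and Ifnar2 of 0.43 (adjusted p = 0.282), with overlapping groups. Jak1 was level in the fit, at −0.01 (95% interval −0.38 to 0.37). Both signs held within each run: Jak2 was at 88.2 against 127 CPM in run 2 and 105 against 144 in run 1, and Ifngr1 at 176 against 101 CPM in run 2 and 121 against 92.2 in run 1. The 9 phagocyte markers summed to 11.2 to 61.5 CPM in microglia of fl EAE and 82.2 to 409 CPM in those of NestinCre EAE, with 8 of 9 higher, and the 13 T or NK markers to 40.7 to 89.5 against 19.4 to 40.3 CPM, with 7 of 13 at 0. Their part in these values was not tested.

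The fitted log2 fold change of Ifngr1 was above 0 in 5 of the 6 classes tested, including excitatory neurons, where the group means were nearly equal (4.87 CPM in NestinCre EAE, 4.94 CPM in fl EAE). In molecular layer interneurons, the inhibitory cells of the cerebellar cortex, it was at 2.55, 5.81, 3.28 and 3.17 CPM in fl EAE and 8.03, 5.94, 10.1 and 6.04 CPM in NestinCre EAE. The groups did not overlap, though the closest libraries were 5.81 and 5.94 (log2 fold change 1.00, SE 0.32, adjusted p = 0.339). In mature oligodendrocytes it was at 6.71, 7.16, 8.36 and 5.36 CPM against 10.2, 10.2, 9.55 and 9.80 CPM, again without overlap (log2 fold change 0.52, SE 0.19, adjusted p = 0.301). Phagocyte markers stood in interneurons at 7.81 to 10.5 against 16 to 77.6 CPM, and in mature oligodendrocytes at 27.2 to 38.2 against 28.4 to 145 CPM, and their part was not tested. Ifnar2 in mature oligodendrocytes (log2 fold change 0.35, adjusted p = 0.405) and Ifngr2 in inhibitory neurons (−0.44, adjusted p = 0.859) complete the 8.

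The smallest standard errors in the classes were those of Jak1 in granule cells, with a log2 fold change of 0.00 (95% interval −0.15 to 0.16), Jak1 in inhibitory neurons, with 0.02 (−0.14 to 0.18), and Ifnar1 in granule cells, with 0.06 (−0.13 to 0.25). For low members such as Ifngr1 in interneurons, with an interval of 0.31 to 1.68, the data fix the size poorly.

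Summed over all kept nuclei, 7 of 7 members had a higher estimate in NestinCre EAE, 2 with an unadjusted p under 0.05 (background 10.9%), and edgeR called 0 (background 3.39%). Ifnar2 was at 17.3, 16.1, 16.6 and 12.0 CPM in fl EAE and 20.3, 18.5, 20.7 and 18.1 CPM in NestinCre EAE, with no overlap (log2 fold change 0.32, SE 0.075, adjusted p = 0.0634). It passed in DESeq2 (0.31, adjusted p = 0.0125; 4.96% of genes called) and in edgeR without NestinCre EAE replicate 2 (0.36, adjusted p = 0.0451). Ifngr1 was at 8.07, 7.48, 9.52 and 8.13 CPM against 13.6, 9.79, 12.8 and 10.1 CPM (log2 fold change 0.46, SE 0.14, adjusted p = 0.197). Jak1 was the third member without overlap, at 79.2 ± 2.01 against 83.8 ± 2.53 CPM (3 of 7, background 6.75%), with a log2 fold change of 0.06. In the naive libraries Ifnar2 was at 16.6 and 24.5 CPM in fl and 21.8 CPM in NestinCre, and Ifngr1 at 8.43 and 11.7 CPM in fl and 11.1 CPM in NestinCre. Of these, fl naive 2 lay within the range of fl EAE, and the other naive libraries lay above every fl EAE library. The phagocyte markers, which mark a class rich in all 7 genes, summed over all nuclei to 27.9 to 35.0 CPM in fl EAE and 31.9 to 171 in NestinCre EAE (9 of 9 higher), and the neutrophil markers to 9.24 to 12.2 against 19.5 to 98.4, and their part was not tested.

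Other genes of the pathway, most of them downstream of the receptors, behaved otherwise in the same fits. Of 281 pairs of a class and a gene from lists of the pathway, 140 were called and all 140 were higher in NestinCre EAE (background 0.919% of gene and class tests called higher). Without fl EAE replicate 1 the calls fell to 88, and without fl EAE replicate 2 to 86. Interferon-γ response genes made up 78 of 102 tested, type I response genes 35 of 54, signal transducers 17 of 45 and negative regulators 9 of 71. The rest, not downstream of the receptors, were other receptor chains and a kinase (1 of 8) and other interferon ligands (0 of 1). Among the brakes of the pathway, Socs1, an inhibitor of JAK kinases, rose in microglia from 7.54 ± 2.59 to 48.6 ± 18.0 CPM (2.67 on the log2 scale, adjusted p = 0.000422), and Usp18, an inhibitor at IFNAR2, from 30.4 ± 14.1 to 117 ± 23.2 CPM (1.85 on that scale, adjusted p = 0.000176). In microglia 3 of 9 negative regulators were called, and the median of the list was 0.30. In excitatory and inhibitory neurons 0 of 5 were called, with medians of −0.04 and −0.05. These lists were chosen with the result known, and a gene could pass the filter on low counts through NestinCre EAE alone, where it was high. In progenitor cells, 9 of the 17 interferon-γ response genes were tested and all 9 were called. The counts therefore describe the lists and support nothing further. The phagocyte markers in fl EAE against NestinCre EAE stood at 30.1 to 43.6 against 31.9 to 143 CPM in granule cells (7 of 9 higher) and 2.41 to 13.7 against 13.9 to 120.3 CPM in astrocytes (6 of 9 higher), beside the values above for microglia and mature oligodendrocytes, and their part was not tested.

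Set beside each other by class, the median log2 fold change was 0.43 for the members and 2.07 for response and transducer genes in microglia, where all genes had −0.01. In mature oligodendrocytes the medians were 0.12 and 3.26, in granule cells 0.06 and 2.96, in astrocytes 0.14 and 2.94, and in progenitor cells 0.19 and 2.84. These medians cover unlike sets of genes, since fewer response genes were tested in smaller classes and a gene could enter through NestinCre EAE alone. They were 1.44 in excitatory neurons (2 of 15 called) and 1.07 in inhibitory neurons (2 of 17), and the differences between classes were not tested. In Golgi, Purkinje and unipolar brush cells 0 response genes were tested, and edgeR called 0 of the 3, 4 and 3 signal transducers tested, with medians of 0.63, 0.62 and 0.97. The signal transducers of granule cells, also with 0 of 4 called, had a median of 0.65. Of the related receptor chains, 1 of 8 pairs was called (background 1.08%): Il10ra, an interleukin-10 receptor chain, in microglia (192 ± 67.6 to 368 ± 25.1 CPM, log2 fold change 0.97, adjusted p = 0.00173). Over all kept nuclei, Il10ra (1.69, adjusted p = 0.00805) and Il10rb (1.3, adjusted p = 0.0234), the neighbour of Ifnar2 and Ifnar1, were called (background 3.39%). Phagocyte markers there stood at 27.9 to 35.0 CPM in fl EAE and 31.9 to 171 in NestinCre EAE, and their part was not tested.

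**Figure D5:**
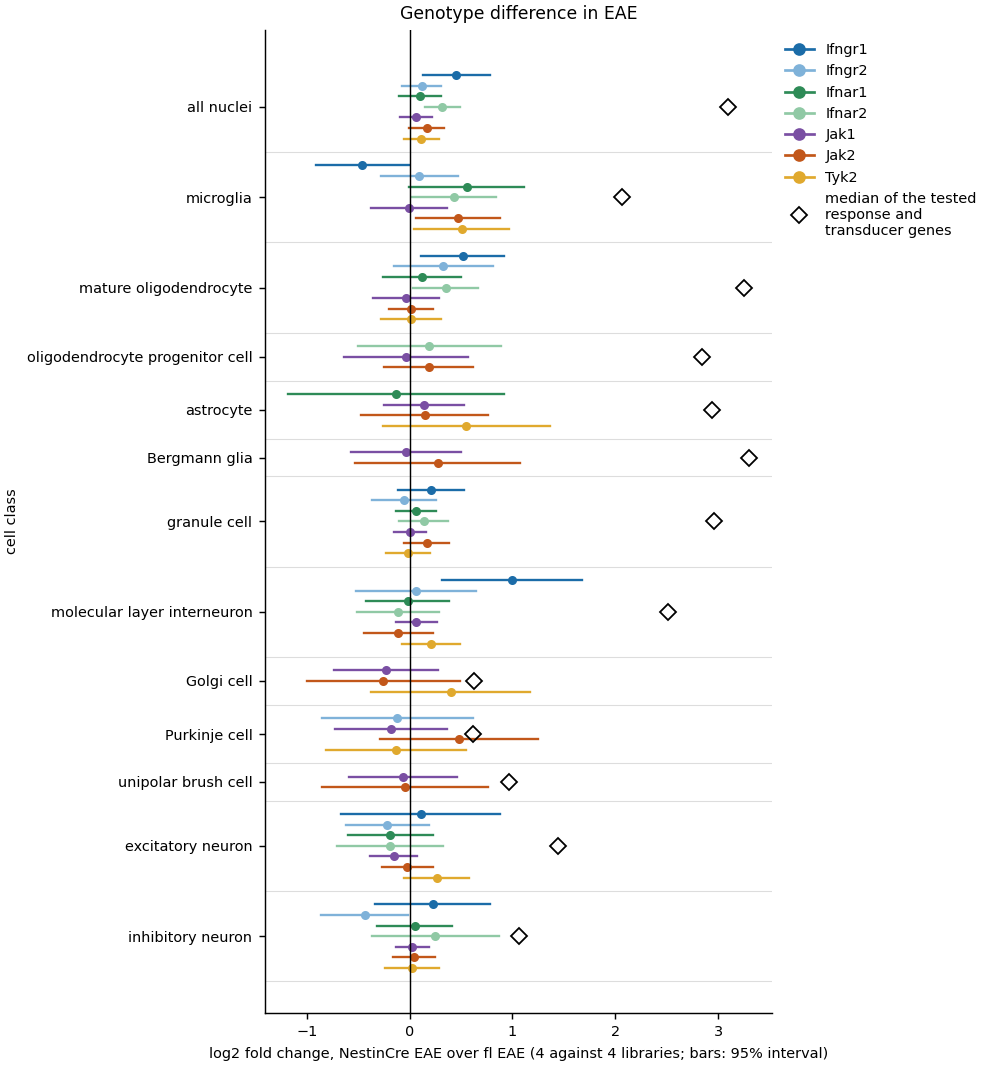
Fitted log2 fold change of each member in EAE, NestinCre over fl (4 against 4 libraries), by cell class and in all kept nuclei, as points with 95% intervals from edgeR, a line at 0, and an open diamond at the median of the tested response and transducer genes. Class estimates of the members run from −0.46 to 1.00, while the diamond stands at 2.07 in microglia and 3.26 in mature oligodendrocytes.

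The last question was whether EAE itself moved the members. These comparisons draw on 2 fl naive libraries and 1 NestinCre naive library, and they share the EAE libraries with the genotype comparison. EAE and naive fl libraries meet within a run only in run 2. Run 3 holds no EAE library, so with run in the model the fitted change in fl mice rests on fl naive 2 alone. That change can differ from the group means, and a count of 0 says little. Counts out of 8 over all kept nuclei, here and below, take in Ifng, whose 22 UMIs are too few for such a fit to decide anything. In fl mice, edgeR and DESeq2 each called 0 of 68 class pairs (background 0.131%), and 4 had an unadjusted p under 0.05 (background 7.88%). Jak2 in granule cells was at 42.1 and 43.2 CPM in fl naive and 55.6, 53.9, 49.6 and 56.7 CPM in fl EAE, and the groups did not overlap (log2 fold change 0.43, SE 0.18, adjusted p = 0.522). Within run 2 it was 42.1 against 56.7 CPM. Excitatory neurons had 46.7 ± 2.74 CPM of Jak2 in fl naive and 60.7 ± 8.41 in fl EAE (0.45, adjusted p = 0.752). The other 2 of the 4, Jak2 in Bergmann glia (−1.67, adjusted p = 0.595) and Ifnar2 in Purkinje cells (−1.91, adjusted p = 0.753), had overlapping groups. Microglial Jak2, not among the 4, was at 55.7 and 67.6 CPM in fl naive and 88.2 to 123 CPM in fl EAE (0.71, adjusted p = 0.827). Over all kept nuclei 0 of 8 had an unadjusted p under 0.05 (background 12%).

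The remaining 3 comparisons rest on the single NestinCre naive library, which shares no run with NestinCre EAE and is assumed to vary like the others. A count of 0 says little there. Between the genotypes in naive mice, the fit sets this library against fl naive 3 alone, the other library of run 3. With run in the model, the fitted EAE change in NestinCre mice also draws on both fl naive libraries, which link run 3 to run 2. It can differ from the group means. Ifnar2 in Purkinje cells, fitted below at −2.80, had a mean of 8.96 CPM in NestinCre EAE and 13.3 CPM in NestinCre naive. Over all kept nuclei Ifnar2 was at 19.4 and 21.8 CPM in the same order, with a fitted log2 fold change of 0.15. In NestinCre mice, edgeR and DESeq2 called 0 of 68 (background 0.0463%) and 3 had an unadjusted p under 0.05 (background 6.38%), as did 0 of 8 over all kept nuclei (background 7.17%). All 3 had estimates below 0, namely Jak1 in Golgi cells (−1.25, adjusted p = 0.833), Tyk2 in inhibitory neurons (−0.73, adjusted p = 0.537) and Ifnar2 in Purkinje cells (−2.80, adjusted p = 0.968). Between the genotypes in naive mice both tools again called 0 of 68 (background 0.00244%), with 1 at an unadjusted p under 0.05 (background 4.11%), Tyk2 in inhibitory neurons (0.68, adjusted p = 0.549), and 0 of 8 over all kept nuclei (background 3.02%). For the interaction of genotype and EAE, 0 of 68 were called by either tool (background 0.000813%) and 3 had an unadjusted p under 0.05 (background 4.74%), namely Tyk2 in inhibitory neurons (−0.66, adjusted p = 0.787), Ifngr1 in microglia (−1.17, adjusted p = 0.653) and Ifngr1 in molecular layer interneurons (1.64, adjusted p = 1). The values of Ifngr1 had opposite signs. Over all kept nuclei, Ifnar2 was the 1 of 8 with an unadjusted p under 0.05 for the interaction (0.43, adjusted p = 0.978, background 4.99%).

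Finally, the genes whose class means were most like those of each member were listed by Pearson's r of log2(CPM + 1) over 12 classes and 15173 genes, as a description, since the classes share libraries and differ in depth. Microglia were the only myeloid class of the 12, and the highest class of every listed gene except those most like Jak2. The part of this class in r was not tested. Ifngr1 was most like Morc3 (r = 0.988), Gdi2 (0.984) and Gm44668 (0.979), and Ifnar1 most like Mtdh (0.979), Setd2 (0.977) and Tra2b (0.971). Ifngr2 was most like Gimap6 (0.974) and Plek (0.971), Ifnar2 like Mfsd1 (0.957) and Cnpy3 (0.955), and Tyk2 like 1700066B19Rik (0.977) and Lgmn (0.976). Jak1 (Tnfaip8, 0.898) had the weakest nearest gene, and Jak2 was most like Rsf1 (0.941) and Cers2 (0.936). Among the members, Ifngr1 and Ifnar1 were most alike (0.919), whereas Jak2 had 0.0910 with Jak1 and 0.0808 with Ifngr2.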

How the data were processed

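Nuclei were Hoechst+ sorted, and libraries were made with a 10x Genomics 3′ kit. The authors deposited one filtered matrix of raw UMI counts per library, made with Cell Ranger against GRCm39 with introns counted. The file headers name version 7.0.0 for run 1 and 6.0.2 for runs 2 and 3, and the submitters' processing notes name 6.0.2. Run was therefore a term in every main fit, and version and run cannot be told apart. Groups and runs were taken from the labels, and the study gives 4 mice per genotype in EAE. It describes a naive floxed sample as an internal control and does not say whether the 2 fl naive libraries are separate mice.

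Barcodes with under 200 genes (run 1) or 500 genes (runs 2 and 3), or 5% or more mitochondrial UMIs, were removed, as were the barcodes with the highest doublet scores (0.8% per 1000 barcodes) and clusters with over 40% of them. This left 159550 of 189709 barcodes. Nuclei were clustered with scanpy 1.11.5 and leidenalg 0.10.2 on 3000 variable genes without the 8 members (40 components, 20 neighbours, resolution 2, then 3), and clusters were named from markers of 26 types, at least 3 of them at 20 CPM or more and 2-fold above the rest. UMIs were summed per library and class, for classes of at least 10 nuclei. Sums were tested with edgeR 4.0.16 (quasi-likelihood, TMM, Benjamini-Hochberg over all genes tested in the class, R 4.3.3), with DESeq2 1.42.0 as an alternative. Single values were tested by two-sided exact permutation (scipy 1.17.1). Class levels were tested between neighbours in the order that the same values gave, adjusted over 105 pairs. The scripts were tested on simulated data, where the edgeR fit called 40.9% of 2-fold changes in microglia and 78.8% in granule cells.

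The members, the gene lists and the comparisons were chosen with earlier results of these data known. Named are all 8 members, with values for the classes a result turns on, the genes most like each member over classes, and examples from the pathway lists, of which some results are not reported here. Gene positions are from GENCODE on GRCm39, and promoters from a RefSeq table on GRCm38.p6. At 40761007 UMIs in the shallowest library, a count of 0 allows up to 3 UMIs, and intervals cover counting error only. Alternatives were DESeq2, other scalings, no filter, no run term, each library left out, run 1 alone and the replicate block. Others were no removal of doublets, a limit of 6000 UMIs per nucleus, a lower clustering resolution and thinning to 500 UMIs or none.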

Additional observations from a re-analysis of the deposited data

Results flagged for a closer look

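With Dixon's gap ratio, 136 groups of 4 libraries were searched for a library far from the other 3, and 5 passed its limit. Chance alone gives about 1 in 20. In granule cells, Ifngr1 in fl EAE 3 was at 11.5 CPM against 8.33 to 8.67 in the other fl EAE libraries, and Ifnar2 in fl EAE 4 was at 9.0 CPM against 14.0 to 14.7. In excitatory neurons, Ifnar2 in fl EAE 2 was at 7.48 CPM against 15.9 to 17.2, on 12 UMIs. In Purkinje cells, Jak1 in NestinCre EAE 3 was at 25.3 CPM against 45.6 to 49.4, on 6 UMIs. In whole libraries, Ifng in fl EAE 3 was at 0.0149 CPM of the library, on 1 UMI, against 0 in the other fl EAE libraries. With those tied at 0, the ratio is 1 for any value. Their counts of 0 allow 0.0373 to 0.0627 CPM, so fl EAE 3 was not set apart from them. No test of the interaction between genotype and EAE called a member.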

How the results depend on the processing

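The members stayed uncalled between genotypes in EAE (0 of 67 tests) under 16 of 18 alternatives. The exceptions were DESeq2, with 1 call (Ifnar2 in all kept nuclei, log2 fold change 0.31), and edgeR without NestinCre EAE replicate 2, with 1 call (the same gene, 0.36). Leaving out each library gave 0 to 1 calls there, and 0 in the fits that could be made for the other comparisons: 10 of 11 libraries for EAE against naive in fl (not fl naive 2), 8 for EAE against naive in NestinCre (no naive library) and 9 each for genotype in naive and the interaction (neither run 3 library). The pathway lists gave 140 calls and 86 to 139 when a library was left out, with 88 without fl EAE replicate 1 and 86 without fl EAE replicate 2. With the replicate block they gave 112 calls and the members 0. The numbers were not taken to pair the samples: same-numbered libraries of the 2 genotypes had correlations of deviations of −0.28, 0.64, 0.16 and −0.18, where 1 of 4 matched its own number best. Within run 1 they were 0.01, 0.33 and 0.44, and 2 of 3 matched best, which is a hint of pairing from the data and not from the design.

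The Ifng difference of 0.137 CPM was 0.0123 in T or NK nuclei. There 1 library held all UMIs, which fixes the exact permutation p of 1. The difference was 0.164 in run 1 alone (exact permutation p = 0.1) and 0.0864 to 0.178 with each library left out. With each fl EAE library left out it was 0.136 to 0.141, with an exact permutation p of 0.171. Of neighbouring classes, as ordered by the tested values, 0 of 105 pairs passed. This was 5 of 84 in nuclei of at most 6000 UMIs and 3 of 98 at a lower resolution. Against granule cells, a reference added after the data were seen, 61 of 105 passed, 39 of them higher and 22 lower. Without a share over all genes by the same test beside it, this count is a description only. The backgrounds of 16.6% and 22.6% belong to pairs that went the same way in every library, 29 higher and 14 lower. At the lower resolution phagocytes were not named, and the leading class of Jak2 was the mature oligodendrocyte at 182 CPM and that of Ifnar1 the endothelial cell at 108 CPM. Shares of nuclei with a UMI moved with depth: thinned to 500 UMIs and unthinned, they were 6.88% and 20.6% for Ifngr1, 8.11% and 23.3% for Ifngr2, 6.0% and 16.8% for Ifnar1, 14.1% and 40.9% for Jak2 and 6.88% and 20.3% for Tyk2 in phagocytes, and 12.7% and 38% for Ifnar2 and 17.3% and 54.7% for Jak1 in border-associated macrophages. Depth limits the low members, since Ifngr1 in Purkinje cells rests on 25 UMIs. The cause of these moves was not tested, other than depth, which thinning sets, and the number of libraries.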

Other observations

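Classes with at least 10 nuclei in fewer than 6 libraries were set beside the others as values only. In the 4 NestinCre EAE libraries, B or plasma cells held 534 ± 166 CPM of Jak1 and T or NK cells 560 ± 127 CPM (SD, n = 4 each), against 271 ± 40.5 CPM in microglia (n = 11). B or plasma cells had 90.1 ± 12.4 CPM of Ifngr2 on 12 UMIs, while T or NK cells had 8.15 ± 16.3 CPM on 2 UMIs. Neutrophils, short-lived phagocytes of the blood, held 367 ± 180.0 CPM of Jak2 and 345 ± 47.3 CPM of Jak1 (n = 3). Endothelial cells, which line the vessels, held 168 ± 8.05 CPM of Ifnar2 and 207 ± 56.9 CPM of Ifnar1 (n = 3), on 26 and 31 UMIs. No test between groups was made in these classes.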
